A study of Drosophila melanogaster with 6 samples.

Results

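The core proteins of the spliceosome were followed in whole embryos of Drosophila melanogaster, as 35 genes chosen by name: proteins of the U1, U2, U4, U5 and U6 small nuclear ribonucleoproteins (snRNPs), the Sm proteins they share, and factors that act with them. Of these, 32 were matched to entries of the deposited table by their FlyBase symbol, out of 14737 genes in all, and they held 230 of its 128393 features (137 exonic bins, 92 annotated splice junctions and 1 unannotated junction). SmG and l(3)72Ab were matched under the current symbols SNRPG and Brr2. Sf3a1, Sf3b3 and hoip could not be matched by identifier and were not analysed here.

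The study compared the wild-type strain OreR with caper mutants of the CC01391 allele, in 3 biological replicates of each genotype. The Caper protein binds RNA and is related to the vertebrate splicing factor RBM39. Neither group was treated, all eggs came from apple juice plates with yeast, and no label states how old the embryos were. Every mutant library came from the caper strain and every other library from OreR, so the allele and the genetic background cannot be told apart. The level of caper was not analysed here, and the genotype labels were therefore not checked through it. Library totals ran from 34815930 to 42956396 gene counts, and the lowest count of any of the 32 genes in any library was 667. Whether replicates came from separate egg collections is not stated, so p-values measure the spread between these libraries.

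Splicing removes introns in an ordered assembly. The U1 snRNP pairs with the 5' splice site, SF1 and the U2 auxiliary factor mark the branch point and the 3' splice site, and the U2 snRNP then takes over the branch point. The U4/U6.U5 tri-snRNP joins, RNA helicases rearrange it into the catalytic form, and the Prp19 complex (NTC) and late helicases carry it through both chemical steps and release the mRNA. These genes are active in most cells, and mothers also load their transcripts into the egg.

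Transcripts of the core spliceosome proteins were higher in caper mutant embryos. Of the 32 genes, 24 rose and 0 fell, where 26.4% of all 10251 tested genes rose and 20.6% fell (edgeR quasi-likelihood F test, Benjamini-Hochberg adjustment over all tested genes, threshold 0.05; 46.9% changed in either direction). Only U2A was lower at an unadjusted p under 0.05. DESeq2 called 25 of the 32 higher and 1, U2A, lower, against 2827 and 2258 of all 10251 tested genes. The median log2 fold change (mutant over OreR) was 0.48 for the 32 genes and -0.07 for all tested genes, and it was above 0 in 31 of the 32, against 45.1% of all. Changes were moderate, from 1.18-fold (Prp31) to 2.29-fold (pea) among the genes that rose. The 3 mutant values lay above the 3 OreR values in 27 of the 32 genes (30.8% of all tested genes) and below them in 1, U2A (29.5%). With upper quartile scaling, which moved the median of all genes by -0.16, 20 of the 32 genes rose and 1, U2A, fell, against backgrounds of 22.1% and 34.8%. The median of the 32 genes stood 0.55 above the median of all genes with either scaling. A change of scaling shifts the log2 fold changes of all genes by about the same amount. This distance could therefore hardly differ, and it does not test the choice of scaling.

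**Figure D1:**
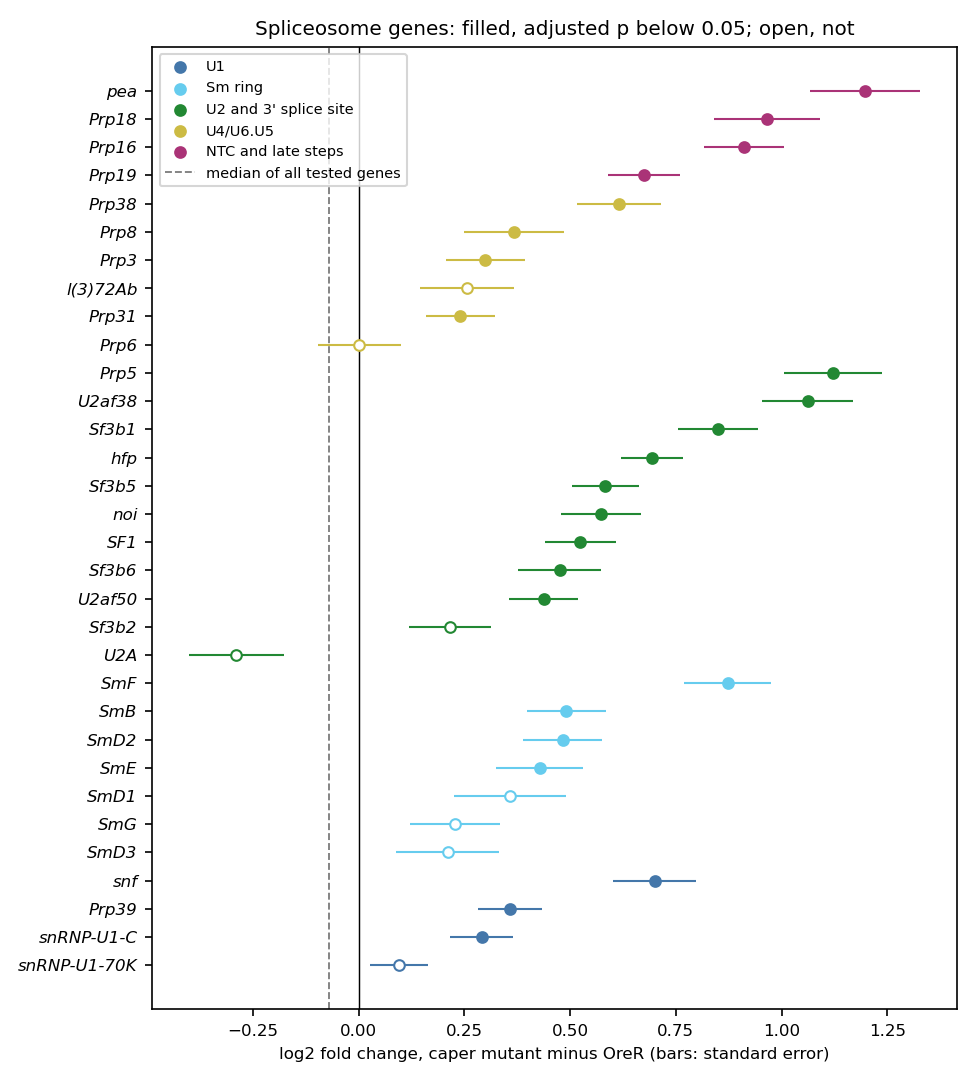
Log2 fold change of each of the 32 genes, caper mutant minus OreR, with its standard error, coloured by the part of the spliceosome it belongs to. Filled points passed the adjusted threshold, and the dashed line is the median of all tested genes. All 4 genes of the Prp19 complex and late steps lie at 0.68 or above, and U2A is the only gene below 0 with TMM scaling.

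The embryos also differed in some markers of developmental stage and tissue. Of all tested genes, 26.4% rose and 20.6% fell, and DESeq2 called 2827 of 10251 higher and 2258 lower. Of 11 cell cycle genes 7 rose and 0 fell, and of 9 maternal genes 4 rose and 0 fell (the same counts in DESeq2 and at an unadjusted p under 0.05). Of 8 muscle genes 6 fell and 0 rose (DESeq2: 7 and 0; unadjusted p under 0.05: 8 and 0), and of 8 neuron genes 6 fell and 0 rose (6 and 0 by both). Of 9 cuticle genes 6 fell and 1 rose, of 11 zygotic patterning genes 1 fell, and of 5 germline genes 1 rose and 1 fell. The zygotic patterning and germline counts were not above the shares of all tested genes. The testis and chorion lists, chosen as low in embryos, summed to at most 38.2 and 0.881 CPM in any library, with 3 of 6 and 2 of 6 at 0 counts in every library. Most of the testis sum was bam (19.5 ± 6.18 and 36.0 ± 2.70 CPM), the 1 gene of that list that rose. The next, can, reached at most 0.638 CPM in any library, and the leading chorion genes Cp18 and Cp38 at most 0.626 and 0.255 CPM. The summed level of the maternal list was 1257 to 1891 CPM (counts divided by library depth, with edgeR's TMM scaling) in OreR and 2886 to 3886 in the mutant. Much of that sum was smg, a repressor of maternal mRNA, at 854 ± 203 and 2439 ± 441 CPM (SD, n = 3). Next was stau, an RNA-localisation protein, at 278 ± 14.1 and 448 ± 56.3 CPM. The genes bcd and plu also rose. The log2 fold changes of osk (-0.26 ± 0.27 SE), gcl (-0.22 ± 0.10), gnu (0.07 ± 0.30), png (0.00 ± 0.25) and pgc (0.22 ± 0.32) did not pass. The list median was 0.22. The summed cell cycle list was 2872 to 4504 and 5870 to 7288 CPM, led by the mitotic cyclin genes CycB (1434 ± 392 and 2931 ± 443) and CycA (789 ± 190.5 and 1231 ± 107). The summed muscle list was 5480 to 8092 and 2724 to 4938 CPM, led by Mhc, the muscle myosin heavy chain, at 2018 ± 446 and 966 ± 267 CPM, and the myosin light chain gene Mlc2 at 1478 ± 281 and 882 ± 346 CPM. The summed neuron list was 1060 to 1349 and 758 to 802 CPM, led by the RNA-binding protein genes elav (386 ± 47.8 and 322 ± 27.8) and fne (268 ± 36.2 and 185 ± 7.43). Mlc2 and elav did not pass. The chitin deacetylase genes verm and serp led the cuticle list and fell 1.57-fold and 1.68-fold, the segmentation gene en fell 1.30-fold, and the gap gene Kr had a log2 fold change of 0.06 ± 0.09, which did not pass. In the germline list, tud fell 1.33-fold, and AGO3, a Piwi-family gene, rose 2.945-fold. In whole-embryo RNA, a change in the number of cells of a type and a change in RNA per cell cannot be told apart.

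By summed CPM, the order of the libraries within each genotype was shared with the cell cycle and maternal lists and reversed in the muscle and cuticle lists. Much of the maternal sum was smg. OreR replicate 2 had the lowest CPM of the 3 OreR libraries in 29 of the 32 genes, and mutant replicate 3 had the highest CPM of the 3 mutant libraries in 23. The 32 genes summed to 3755, 3337 and 3806 CPM in OreR replicates 1 to 3 and to 4888, 5127 and 5616 CPM in mutant replicates 1 to 3. The cell cycle list summed, in the same order, to 4280, 2872 and 4504 CPM and to 5870, 6959 and 7288 CPM, so its order within each genotype was that of the spliceosome genes. The muscle list, at 6997, 8092 and 5480 CPM and at 4938, 4144 and 2724 CPM, ran the other way. The neuron list was highest in OreR replicate 2 and lowest in mutant replicate 3, and the zygotic patterning list (334 to 391 CPM in all libraries) was lowest in mutant replicate 2. The part of stage and tissue makeup in the changes of the spliceosome genes was not tested. Without OreR replicate 2 and mutant replicate 3, a choice made after seeing the data, 21 of the 32 genes rose and 0 fell, with a median log2 fold change of 0.41. The share of all genes called in that fit is not given here. With OreR replicate 2 alone left out, 22 of the 32 rose and 0 fell, against 2577 and 1538 of all 10319 tested genes. With mutant replicate 3 alone left out, 21 rose and 0 fell, against 2351 and 1282 of 10405.

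**Figure D2:**
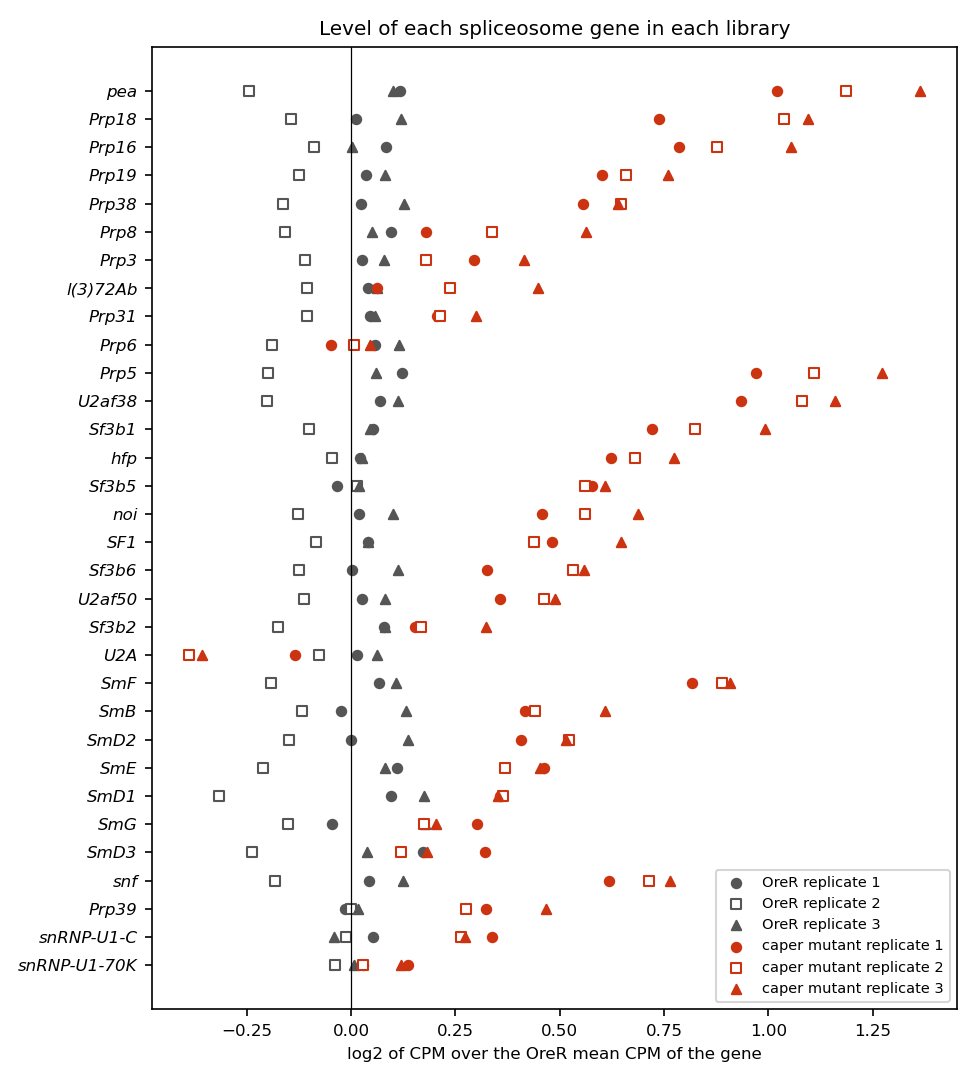
Level of each gene in each library as log2 of its CPM over the mean CPM of OreR. Circles, squares and triangles are replicates 1 to 3. OreR replicate 2 is the lowest OreR library in 29 genes, and red points lie to the right of all grey points in 27 genes.

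In what follows, CPM values of replicates 1 to 3 are given in that order, and they compare libraries for 1 gene, not genes with each other, because no gene lengths of the build of the table were used.

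Among the U1 proteins, 3 of 4 rose, with log2 fold changes from 0.10 to 0.70. snf, which in the fly serves both as the U1A and as the U2B'' protein of vertebrates, measured 85.1, 72.7 and 90.0 CPM in OreR and 127, 136 and 140.2 in the mutant. The genotypes did not overlap, and snf rose 1.62-fold (log2 fold change 0.70 ± 0.10 SE, adjusted p = 0.0013 in the edgeR test). Prp39, known from yeast as a U1-associated protein, rose 1.28-fold (adjusted p = 0.0076 in edgeR). snRNP-U1-C, which helps the U1 snRNP hold the 5' splice site, rose 1.22-fold (adjusted p = 0.016 in edgeR), a call that ended without mutant replicate 2 (0.057) and with upper quartile scaling (0.17). snRNP-U1-70K, which binds U1 RNA directly, was at 142, 136 and 140.2 CPM in OreR and 153, 142 and 152 in the mutant. Its groups overlapped, with a log2 fold change of 0.10 ± 0.07 (adjusted p = 0.28 in edgeR) that turned to -0.06 with upper quartile scaling.

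The 7 Sm proteins form the ring that is assembled on U1, U2, U4 and U5 RNA. All 7 had positive log2 fold changes with TMM scaling, from 0.21 (SmD3) to 0.87 (SmF), and 4 of them rose. SmF stood out, at 38.6, 32.3 and 39.8 CPM in OreR and 65.1, 68.3 and 69.3 in the mutant. That was a 1.83-fold rise with no overlap (0.87 ± 0.10, adjusted p = 0.00079 in edgeR). SmB, SmD2 and SmE rose 1.41-fold, 1.40-fold and 1.35-fold. The other 3 ring proteins did not pass. SmD1 had a log2 fold change of 0.36 ± 0.13 (adjusted p = 0.058 in edgeR, and under 0.05 in 6 of the 13 alternatives), and SmG one of 0.23 ± 0.11 (adjusted p = 0.11). SmD3 measured 63.1, 47.4 and 57.4 CPM in OreR and 69.9, 60.8 and 63.5 in the mutant, and its groups overlapped (0.21 ± 0.12, adjusted p = 0.18). The ring proteins thus spanned fold changes of 1.16 to 1.83. Whether the 7 fold changes differ from each other was not tested.

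Of the 11 proteins of the U2 snRNP and of 3' splice site recognition, 9 rose. U2af38, which forms the smaller part of the U2 auxiliary factor and reads the AG at the end of the intron, measured 104, 86.0 and 107 CPM in OreR and 189, 209 and 221 in the mutant. Its lowest mutant value was 1.77 times its highest OreR value, and it rose 2.09-fold (1.06 ± 0.11, adjusted p = 0.00062 in edgeR). Its partner U2af50, the large subunit, which binds the polypyrimidine tract, rose 1.35-fold (0.44 ± 0.08, adjusted p = 0.0043). SF1, which binds the branch point before the U2 snRNP does, was at 240.3, 220.3 and 240.4 CPM in OreR and 326, 316 and 366 in the mutant, a 1.44-fold rise (0.52 ± 0.08, adjusted p = 0.0022 in edgeR). For hfp, the fly relative of the splicing factor PUF60, the values were 195, 186 and 196 CPM in OreR and 296, 308 and 329 in the mutant. The replicates of hfp lay close together, and it rose 1.62-fold (0.69 ± 0.07, adjusted p = 0.00067 in edgeR).

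Of the 5 matched subunits of SF3A and SF3B, which clamp the U2 snRNP onto the branch point, 4 rose. Sf3b1, the large scaffold of SF3B, was at 152, 136 and 151 CPM in OreR and 241, 259 and 291 in the mutant, 1.80-fold higher (0.85 ± 0.09, adjusted p = 0.00071 in edgeR). The small subunit gene Sf3b5 had 31.7, 32.8 and 32.9 CPM in OreR and 48.5, 47.9 and 49.5 in the mutant, with an SD of 0.642 and 0.821 CPM. It rose by a log2 fold change of 0.58 ± 0.08 (adjusted p = 0.0011 in edgeR). noi, the SF3A subunit that corresponds to human SF3A3, measured 88.1, 79.7 and 93.4 CPM in OreR and 119.6, 128 and 140.3 in the mutant. It rose 1.49-fold without overlap (0.57 ± 0.09, adjusted p = 0.0024 in edgeR), and Sf3b6, which contacts the branch point, rose 1.39-fold. Sf3b2 did not pass, with 1.16-fold higher values in the mutant (0.22 ± 0.10, adjusted p = 0.10).

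Prp5, an RNA helicase that in yeast prepares the U2 snRNP for the branch point, had the second largest difference of the 32 genes. Its values were 103, 82.3 and 98.4 CPM in OreR and 185, 204 and 228 in the mutant, a 2.18-fold rise (1.12 ± 0.12, adjusted p = 0.00064 in edgeR). U2A, whose protein binds U2 RNA together with the U2B'' protein, had lower values in the mutant, with 25.6, 24.0 and 26.4 CPM in OreR and 23.1, 19.3 and 19.8 in the mutant. The groups did not overlap, but the difference did not pass in edgeR (-0.29 ± 0.11, adjusted p = 0.067). It passed in DESeq2 (adjusted p = 0.047) and with upper quartile scaling (-0.44, adjusted p = 0.015). Its log2 fold change was thus opposite in sign to that of snf, the U2B'' protein.

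The U4/U6.U5 proteins showed the smallest median of the 5 sets, 0.28, and 4 of 6 rose. Prp38, which in yeast is needed to activate the assembled spliceosome, had 38.1, 33.5 and 40.9 CPM in OreR and 55.1, 58.8 and 58.5 in the mutant. It rose 1.53-fold (0.62 ± 0.10, adjusted p = 0.0022 in edgeR). Prp8, the U5 protein that cradles the active site, rose 1.29-fold (0.37 ± 0.12, adjusted p = 0.037), and the U4/U6 proteins Prp3 and Prp31 rose 1.23-fold and 1.18-fold (adjusted p = 0.034 and 0.044). These last 3 calls were close to the threshold. Prp8 missed it without any one of OreR replicates 1, 2 and 3 or mutant replicates 2 and 3 (adjusted p from 0.052 to 0.10), Prp31 without OreR replicate 1 or 2 or mutant replicate 2 or 3 (0.073 to 0.14), and Prp3 without OreR replicate 1 or 2 or mutant replicate 3 (0.070 to 0.11). All 3 also missed it with upper quartile scaling (0.11 to 0.32), Prp8 and Prp31 with annotated junctions only (both 0.11), and Prp31 with the replicate number as a block (0.086). l(3)72Ab, the Brr2 helicase that unwinds U4 from U6 RNA, had 1.20-fold higher values in the mutant that did not pass (0.26 ± 0.11, adjusted p = 0.091). Prp6, the bridge between U5 and U4/U6, had the smallest difference of all, with 76.8, 64.7 and 79.9 CPM in OreR and 71.4, 74.1 and 76.1 in the mutant. Its log2 fold change was 0.00 ± 0.10 (adjusted p = 0.99 in edgeR), and it took either sign among the alternatives.

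All 4 proteins of the Prp19 complex and the late steps rose, with a median log2 fold change of 0.94. pea, the fly Prp22, a helicase that releases the finished mRNA, measured 90.5, 70.4 and 89.5 CPM in OreR and 169, 190.0 and 215 in the mutant. This was the largest difference of the 32 genes, 2.29-fold (1.20 ± 0.13, adjusted p = 0.00071 in edgeR). Prp18, a factor of the second chemical step, had 28.7, 25.7 and 30.9 CPM in OreR and 47.5, 58.4 and 60.8 in the mutant and rose 1.95-fold (0.96 ± 0.13, adjusted p = 0.00097). For Prp16, the helicase that remodels the spliceosome before that step, the values were 94.6, 84.0 and 89.5 CPM in OreR and 154, 164 and 186 in the mutant. It rose 1.88-fold (0.91 ± 0.09, adjusted p = 0.00064 in edgeR). Prp19, the ubiquitin ligase that gives its complex its name, was at 141, 126 and 145 CPM in OreR and 208, 217 and 233 in the mutant, a rise of 0.68 ± 0.08 in log2 (adjusted p = 0.00088 in edgeR). In each of these 4 genes the lowest mutant library was above the highest OreR library, by 1.43 to 1.87 times.

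By the exon coordinates of BDGP6, exons of 15 of the 32 genes overlap a gene on the other strand, among them U2af38, pea, Prp18, Prp16 and U2A. The strand setting of the counting is not stated by any source used, so reads of such pairs may not have been kept apart. Of the partners, 12 are in the table: 4 rose, 2 fell and 6 did not pass (of all tested genes, 26.4% rose and 20.6% fell). In 3 of the 4 that rose the partner rose more than the listed gene: CG7011 (0.77 ± 0.09) over Prp31 (0.24), CG1523 (0.64 ± 0.10) over Prp39 (0.36), and Prp40 (0.61 ± 0.10) over Sf3b2 (0.22). The part of partner reads in the values of these 3 genes was not tested. The partners of pea (CG13018) and Prp16 (CG11674) had log2 fold changes of -0.07 ± 0.16 and 0.08 ± 0.30, and that of Prp18 (P5cr) fell by 0.44 ± 0.13. CG11562, which overlaps U2af38, rose from 19.4 to 24.9 CPM (0.36 ± 0.11), and CG12107, which overlaps U2A, had a log2 fold change of -0.09 ± 0.09. The partner of SmD2 (CG17919) fell by 1.06 ± 0.24. Of the 17 genes with no such overlap, 13 rose and 0 fell, against the same 26.4% and 20.6% of all tested genes. With annotated junctions alone counted, 18 of the 24 genes that have junctions rose and 0 fell, against 27.6% and 19.5% of all genes tested that way. Calls changed in both directions there. Prp31 and Prp8 lost the call (adjusted p = 0.11 for both in edgeR), while Sf3b2 (0.043), SmD3 (0.044) and l(3)72Ab (0.041) gained it. Of these genes, only l(3)72Ab has no overlap on the other strand.

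Most of the other listed proteins of the spliceosome and of snRNP assembly rose too. Their list was also chosen with earlier results of these data known, so it is no separate test. Overlap on the other strand was not checked for these genes, and Prp40, which is on the list, overlaps Sf3b2. Of 44 tested, 32 rose and 0 fell (1 was lower at an unadjusted p under 0.05 and 0 in DESeq2), with a median log2 fold change of 0.57. Of all tested genes, 26.4% rose and 20.6% fell, with a median of -0.07. The 4 largest rises were those of icln, a chaperone that hands Sm proteins to the assembly machinery (2.98-fold, 23.8 ± 5.03 to 70.8 ± 7.80 CPM), Gem2, a subunit of the SMN complex (2.35-fold, 27.8 ± 5.95 to 65.1 ± 5.03 CPM), CG7564 (2.19-fold, 71.1 ± 2.59 to 156 ± 8.43 CPM), and BCAS2, a member of the Prp19 complex (2.11-fold, 39.4 ± 5.55 to 83.2 ± 4.82 CPM). In Sm ring assembly 6 of 8 genes rose, among the other U1 and U2 proteins 6 of 6, among the other U5 and tri-snRNP proteins 5 of 7, and among the other Prp19 complex and catalytic proteins 12 of 17. In the LSm ring, which is carried by U6 RNA or, with LSm1, takes part in mRNA decay, 3 of 6 rose and the list held both signs, from -0.24 to 0.62. Upper quartile scaling called 29 of the 44 higher and 4 lower, against 22.1% and 34.8% of all tested genes.

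**Figure D3:**
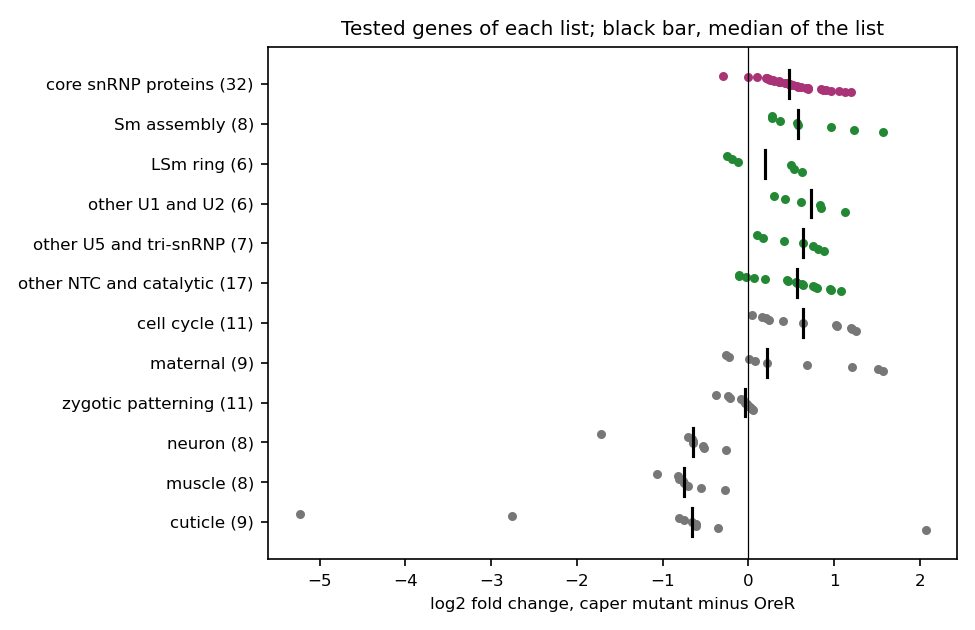
Log2 fold changes, caper mutant minus OreR, of the tested genes in the core snRNP proteins (purple), in other spliceosome lists (green) and in lists of stage and tissue markers (grey), with the number of genes in brackets. Black bars are list medians, which lie at 0.48 for the core proteins, 0.64 for cell cycle genes and -0.75 for muscle genes.

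The RNA partners of these proteins were barely covered. Of 31 small nuclear RNA entries (7SK and U7 RNAs included), 30 stayed under 100 counts in every library, and 11 passed the filter on low counts. Of these 11, 5 rose and 0 fell, against 26.4% and 20.6% of all tested genes. At an unadjusted p under 0.05, 7 were higher and 0 lower, and DESeq2 called 5 and 0. An entry can pass the filter through the counts of either genotype alone. snRNA:U2:34ABa, for example, had 0.026, 0.023 and 0 CPM in OreR and 0.31, 0.41 and 0.36 in the mutant. The direction of such an entry is partly fixed by the filter, so the counts over the 11 are a description only. The best covered was snRNA:U12 of the minor spliceosome, at 5.09, 2.64 and 5.56 CPM in OreR and 12.8, 14.6 and 16.0 in the mutant (log2 fold change 1.71 ± 0.27, adjusted p = 0.0021 in edgeR). Copies of the U1, U2, U4, U5 and U6 genes are near-identical, and their counts are uncertain.

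Usage of bins and junctions changed in about as small a share of these genes as of all genes. Usage asks whether a bin or junction takes another share of its gene's reads, and it was tested in the 24 genes with at least 2 features. Only SF1 passed (diffSpliceDGE, Simes adjusted p = 0.016), which is 4.17% of them, against 6.07% of 8533 genes tested. Of 211 features of these genes that were tested, 3 (1.42%) passed as lower in share, against 1.81% of all 89049 features in either direction. Of the same 211 features, 0 passed as higher, 0 were higher at an unadjusted p under 0.05, and limma's diffSplice called 1 higher and 7 lower. With those 3, a total of 10 were lower at an unadjusted p under 0.05. Features that passed leaned to lower shares over all genes too. Of all 89049 features, 1609 passed, 502 of them as higher, and limma's diffSplice called 2211, 865 of them higher. The share of all features in each direction at an unadjusted p under 0.05 is not given here. For 21 of the 24 genes the Simes adjusted p was at 1.00.

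In SF1 the feature was exonic bin E005, the smallest of its 7 bins by share. It took 2.68%, 3.32% and 3.45% of SF1 counts in OreR and 2.08%, 1.65% and 1.79% in the mutant, so the genotypes did not overlap (log2 usage difference -0.53, adjusted p = 0.0056 over all features). As a level, the bin had 7.35 ± 0.938 CPM in OreR and 6.18 ± 0.837 in the mutant, while the whole gene rose 1.44-fold. Junction J011 of SF1 had a lower share as well, 0.649% against 0.427% on average, which did not pass (adjusted p = 0.68). The call of SF1 as a gene depended on single libraries: it ended without OreR replicate 2 (Simes adjusted p = 0.078), OreR replicate 3 (0.18), mutant replicate 2 (0.56) or mutant replicate 3 (0.085).

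hfp missed the threshold as a gene (Simes adjusted p = 0.052), although 2 of its rare junctions passed as features. It passed with limma's diffSplice (0.0036), with the replicate block (0.038) and without mutant replicate 3 (0.027). Annotated junction J020 took 0.185%, 0.237% and 0.180% of hfp counts in OreR and 0.0404%, 0.0470% and 0.102% in the mutant (log2 usage difference -1.10, adjusted p = 0.016). These shares rest on 14, 19 and 13 counts in OreR and on 5, 5 and 13 counts in the mutant. The unannotated junction N031, with 12, 17 and 10 counts in OreR and 9, 5 and 4 in the mutant, had a log2 usage difference of -1.18 (adjusted p = 0.016). The call of J020 ended without OreR replicate 2, mutant replicate 1 or mutant replicate 2 (adjusted p from 0.19 to 0.21), and that of N031 without OreR replicate 2, mutant replicate 2 or mutant replicate 3 (0.12 to 0.24). In Prp39 the leading feature was junction J017, with 0.197%, 0.226% and 0.189% of Prp39 counts in OreR and 0.0415%, 0.0779% and 0.101% in the mutant. It did not pass (log2 usage difference -1.02, adjusted p = 0.05004). It passed with annotated junctions only (0.041), the replicate block (0.034), limma's diffSplice (0.0056) and without mutant replicate 3 (0.045), and its adjusted p ran up to 0.49 (without mutant replicate 1) when other libraries were left out.

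The leading features of the next 7 genes were far from the threshold (adjusted p = 1.00 for each). Bin E002 of SmB took 19.4%, 20.3% and 19.9% of its gene's counts in OreR and 17.8%, 18.1% and 17.4% in the mutant, without overlap. Bin E002 of SmD1 was also lower without overlap, at 32.9%, 31.9% and 35.7% against 31.2%, 28.9% and 28.6%. Bin E002 of SmD3 was higher, at 29.1%, 30.01% and 27.6% against 31.7%, 33.9% and 33.7%. These 3 Sm genes have 3 tested features each, which share reads. The groups overlapped in the other 4. Junction J006 of Prp3 had 0.758%, 0.546% and 1.02% against 0.532%, 0.698% and 0.342%, and junction J005 of Prp6 had 5.56%, 4.30% and 5.23% against 4.09%, 3.99% and 4.46%. Junction J003 of SmD2 had 33.4%, 31.5% and 32.7% against 32.2%, 29.3% and 31.6%, and bin E001 of U2af38 had 1.24%, 1.13% and 1.07% against 1.42%, 1.68% and 1.15%. In all 4 the differences were smaller than the range between replicates of at least one genotype.

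**Figure D4:**
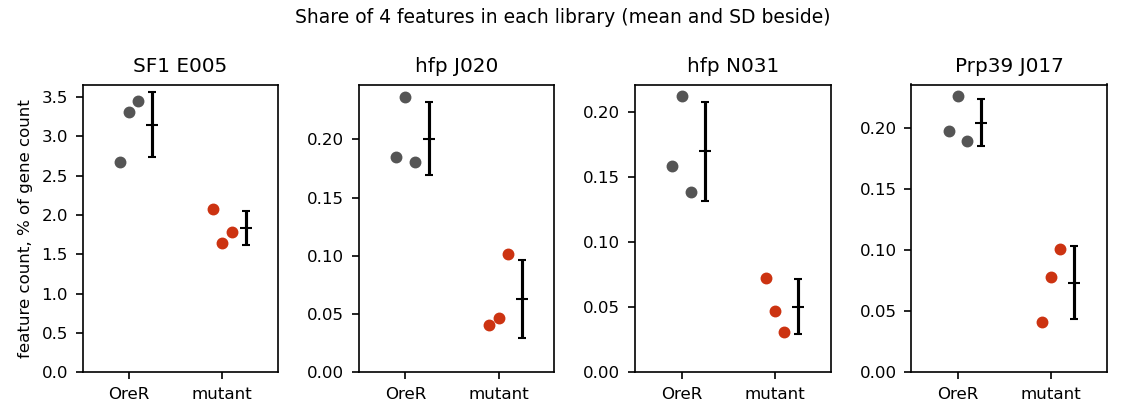
Share of the gene count, in percent, of bin E005 of SF1, junctions J020 and N031 of hfp and junction J017 of Prp39 in each library, with mean and SD beside the points. In all 4 features the 3 mutant values lie below the 3 OreR values, and the y axes differ.

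The bins of hfp with lower shares, a pattern picked out after the values were seen, were numbered consecutively. In all 9 bins from E005 to E013 the mutant shares lay below the OreR shares, as they did for 15.3% of all tested features (6.31% lay above). Together these 9 bins took 16.4%, 17.02% and 16.3% of hfp counts in OreR and 12.6%, 11.7% and 11.8% in the mutant, sums in which a read pair may be counted in several bins. No single bin passed, the nearest being E011 (1.76% ± 0.258 and 1.06% ± 0.0235, adjusted p = 0.10). As levels, the same bins summed to 32.0, 31.7 and 32.0 CPM in OreR and 37.2, 36.0 and 38.7 in the mutant, a smaller difference than that of the gene. The other 6 bins included E001, with 53.2% of hfp counts in OreR and 55.6% in the mutant on average. Of the 211 tested features of the core proteins, 34 (16.1%) had mutant shares below and 5 (2.37%) above all OreR shares, shares close to or under those of all features, and 14 of the 34 were features of hfp.

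**Figure D5:**
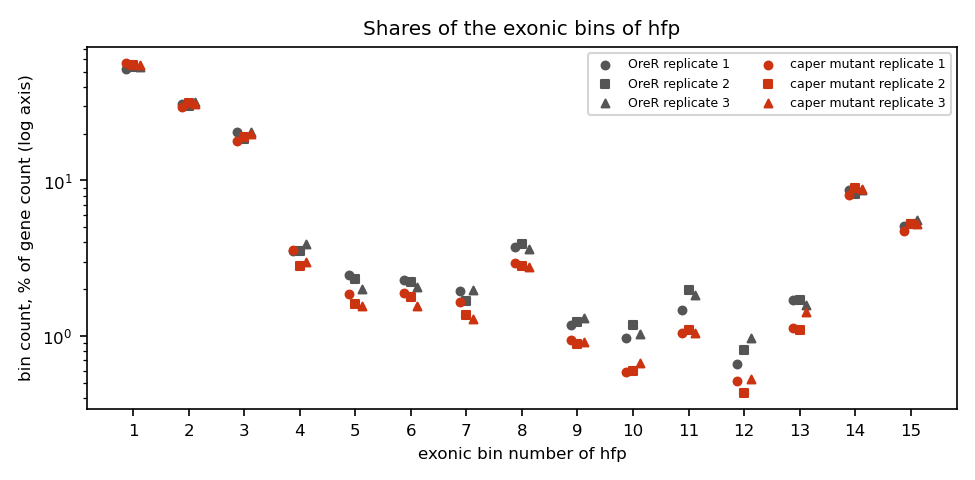
Share of each of the 15 exonic bins of hfp in the gene count, in percent on a log axis, for each library. Grey OreR points lie above red mutant points in bins 5 to 13, and the points mix in bins 2, 3, 4, 14 and 15.

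Counts on annotated junctions per 100 gene counts describe how far the reads of a gene span introns. Over the 24 genes with junctions the ratio of mutant to OreR had a median of 0.972 and ran from 0.856 (Prp6) to 1.09 (SmD3). For all 9139 tested genes with junctions the median was 0.959. The mutant values lay below all OreR values in 4 of the 24 genes and above in 0, against 18.1% and 2.89% of all tested genes. The 4 were Prp6 (15.5 ± 0.484 and 13.2 ± 0.494 per 100), SmD1 (33.0 ± 2.06 and 29.2 ± 1.46), Prp16 and SmB. The other genes overlapped, such as U2af38 (12.11 ± 0.762 and 11.9 ± 1.37) and pea (4.33 ± 0.149 and 4.19 ± 0.609).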

How the data were processed

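Per the labels' protocols, total RNA of whole embryos was sequenced as read pairs from a stranded Illumina kit, all in a single lane. The authors deposited 1 table of raw counts per exonic bin and junction and of counts of the rest of each gene, beside the same counts divided by a size factor of each library, a normalised signal that was not used further. GSNAP 2014-12-17 and SAMtools are listed per the submitters' processing notes, with BDGP5 and mm10 as builds; no source used here names the annotation, the counting tool or the strand setting. A gene's count was the smallest sum of a feature and its rest; all sums were equal in the 32 genes and unequal in 48 others.

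Gene counts were tested with edgeR 4.0.16 (filterByExpr, TMM, genotype as only term) and usage with its diffSpliceDGE, on the whole table, adjusted over all genes or features. Alternatives used DESeq2 1.42.0, limma 3.58.1, other scalings, filters and features, and left out libraries. Standard errors are the absolute log2 fold change over the square root of F. Both steps were tested on simulated counts, with the same spread for every gene and feature and with features drawn independently. Real bins and junctions share reads, so that test does not show how many usage changes were missed here. Names came from BDGP6 tables, and overlaps of genes from BDGP6 exon coordinates, another build than the BDGP5 listed by the submitters. No coordinates of the build of the table, gene lengths or sequences were used. Levels per length and promoter motifs, planned at first, were therefore left out. The unit of SD is n = 3 libraries. The genes and lists were chosen with earlier results of these data known. By rule, every gene got its fold change, and values by library were given for the 14 largest called differences, the 3 smallest and the leading feature of the 10 genes with the smallest usage p; the 4 largest rises among other spliceosome genes and the 2 leading genes of each marker list were named with means, ranges or fold changes.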

Additional observations from a re-analysis of the deposited data

How the results depend on the processing

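Of the 24 genes that rose, 20 kept the call in each of the 13 alternatives in which they were tested, and none of the 24 changed sign; Prp8, Prp31, Prp3 and snRNP-U1-C lost the call in at least 1. On leaving out each library, between 21 and 25 genes rose and 0 fell. Upper quartile scaling gave a median of 0.32, called 1 of the 32 genes and 4 of the other spliceosome genes lower, and turned snRNP-U1-70K to -0.062 and Prp6 to -0.15. DESeq2 also called 1 of the 32 lower. Prp6 was at -0.15 with annotated junctions only, ran from -0.085 (without OreR replicate 2) to 0.096 (without OreR replicate 3) on leaving out each library, was at -0.02 without mutant replicate 3, and was at -0.07 without both; the causes were not tested. On leaving out each library, all changed genes ran from 3169 (without mutant replicate 2) to 4376, and lower markers from 11 to 22.

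Genes with changed usage among the 24 numbered 1, and 0 with annotated junctions only, 3 with limma's diffSplice (SF1, hfp and Prp39), 2 with the replicate block (SF1 and hfp), and 0 to 1 on leaving out each library; without mutant replicate 3 the 1 was hfp, not SF1. Their features that passed numbered 3, and 1 with exonic bins only, 8 with diffSplice and 0 to 3 without single libraries. All genes with changed usage numbered 518, and 303 with annotated junctions only and 324 to 481 without single libraries. The replicate block left 24 of the 32 genes higher (4943 changed genes in all). Pairing of the libraries by replicate number was not shown. The deviations of equal numbers had correlations of 0.090, -0.012 and 0.60. The last was the largest of any pair, but not every library correlated best with its own number. Deviations were taken from the mean of each genotype, which forces mixed signs, so these values cannot exclude pairing. Rare junctions with under 20 counts limit what usage can show.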
